A study of Mus musculus with 6 samples.

Results

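The loci of 10 longevity genes were examined for open chromatin in long-term haematopoietic stem cells (Lt-HSCs), the cells that renew all blood for life, from C57BL/6 mice. They are the forkhead genes Foxo1, Foxo3 and Foxo6 and the sirtuin genes Sirt1 to Sirt7. The assay was ATAC-seq, which uses a transposase to insert sequencing adapters where DNA is not packed, and each sample comes with a separate peak list on mm10. There were 3 aged and 3 young samples. All were sorted from bone marrow as lineage-negative cells with Kit and Sca1 and without Flk2 and Cd34, and all were then kept overnight at 3% oxygen. Exact age is not in the labels. Nor is it stated if a sample is 1 animal or a pool, and p-values therefore reflect only how far these samples spread, which may be technical. Peaks of the 6 lists that touched each other were merged to 882758 regions. A region belonged to the 10 genes if it lay in a gene or within 25 kb of it, which gave 352 regions, 174 at the forkhead genes and 178 at the sirtuin genes. Each locus holds the peaks of its neighbours too, so a region near a gene is not thereby its own.

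FoxO proteins are transcription factors that switch on genes of stress resistance, cell cycle arrest and apoptosis. Insulin and growth factors act through the kinase AKT, which phosphorylates FoxO and keeps it out of the nucleus. In mice, loss of FoxO proteins, and of Foxo3 in particular, raises oxidative stress in blood stem cells and depletes them. Sirtuins are enzymes that use NAD to remove acetyl or other acyl groups from proteins. Sirt1, Sirt6 and Sirt7 act mainly in the nucleus, Sirt2 mainly in the cytoplasm, and Sirt3, Sirt4 and Sirt5 in mitochondria. In mice, Sirt3 and Sirt7 are known to help maintain stem cells in old blood.

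The lists held 129137 to 244692 distinct peaks in aged and 110596 to 263956 in young samples. Of the regions shared by the other 5 lists, aged replicate 3 called 75.6% (95% Wilson interval 74.9 to 76.3) and young replicate 2 called 62.3% (61.5 to 63.1), while the 4 remaining lists called 97.4% to 99.6%. These 2 lists stand apart, and the main counts that rest on them are also given without them. Placings of genes by mean percentile are given with all 6 lists only. Read depth is unknown, and intervals cover counting error only. In samples of many cells, fewer cells with a region open and less cutting per open cell cannot be told apart. Of 15 marker genes of stem cells, 9 (60%) had a promoter called in all 6 lists, as had 35% of all protein-coding genes. Kit, Meis1 and Hlf were among the 9, but Slamf1 had none in any list. None of 19 markers of B, T and NK, myeloid, erythroid and endothelial cells was called in all 6, although some, such as Mpo, Epor and Pecam1, were called in 5. The marker lists were chosen with earlier results of these data known, so they are no independent check of cell identity.

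Promoter sequences of 5 of the genes are shown first, because their calls span the range from the strongest promoter of the set to the weakest. Each runs from 250 bases before the start of transcription to 50 bases after it, on GRCm38.p6 and on the strand of the gene, as RefSeq gives it. A start was found for 9 of the 10 genes, and none for Foxo6. Capitals mark a match, on either strand, to a CCAAT box (CCAAT), the ETS motif CCGGAAG, the E-box CACGTG or the NRF1 core CGCATGCG. Sirt2 lies on the plus strand at chr7:28766502-28766801, Sirt1 on the minus strand at chr10:63338986-63339285, Foxo1 on the plus strand at chr3:52268087-52268386, Sirt6 on the minus strand at chr10:81627517-81627816 and Sirt7 on the minus strand at chr11:120624965-120625264.
Sirt2: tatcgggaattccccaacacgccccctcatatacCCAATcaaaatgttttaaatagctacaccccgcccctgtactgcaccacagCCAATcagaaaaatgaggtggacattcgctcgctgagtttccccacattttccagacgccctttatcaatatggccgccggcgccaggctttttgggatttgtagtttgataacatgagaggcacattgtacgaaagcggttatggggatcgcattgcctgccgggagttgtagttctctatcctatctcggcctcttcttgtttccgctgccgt
Sirt1: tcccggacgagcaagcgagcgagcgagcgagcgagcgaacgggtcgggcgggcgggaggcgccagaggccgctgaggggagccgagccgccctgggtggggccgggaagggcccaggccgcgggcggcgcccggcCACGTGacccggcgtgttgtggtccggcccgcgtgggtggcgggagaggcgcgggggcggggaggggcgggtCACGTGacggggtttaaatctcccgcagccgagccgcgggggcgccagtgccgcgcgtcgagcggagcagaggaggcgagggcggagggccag
Foxo1: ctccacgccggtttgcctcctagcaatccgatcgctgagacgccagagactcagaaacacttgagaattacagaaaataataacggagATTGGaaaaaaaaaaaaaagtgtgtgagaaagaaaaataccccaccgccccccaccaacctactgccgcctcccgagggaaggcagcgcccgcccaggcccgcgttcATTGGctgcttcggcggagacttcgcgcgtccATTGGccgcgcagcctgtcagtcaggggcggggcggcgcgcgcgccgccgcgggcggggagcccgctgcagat
Sirt6: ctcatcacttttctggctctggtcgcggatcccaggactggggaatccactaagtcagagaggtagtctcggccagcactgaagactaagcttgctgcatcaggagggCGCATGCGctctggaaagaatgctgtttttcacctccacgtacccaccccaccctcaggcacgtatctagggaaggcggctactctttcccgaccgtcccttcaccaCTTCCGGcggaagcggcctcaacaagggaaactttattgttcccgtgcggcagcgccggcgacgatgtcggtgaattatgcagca
Sirt7: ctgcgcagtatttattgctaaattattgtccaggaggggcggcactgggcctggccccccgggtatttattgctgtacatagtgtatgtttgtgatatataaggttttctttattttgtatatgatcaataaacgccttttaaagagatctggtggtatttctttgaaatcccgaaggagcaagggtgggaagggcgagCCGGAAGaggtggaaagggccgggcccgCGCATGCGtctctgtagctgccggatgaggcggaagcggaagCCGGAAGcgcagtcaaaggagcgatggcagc
Sirt1 carried 2 E-boxes, with first bases at -115 and -43 from its start, in a window of 79% G and C with 47 CpG sites. An E-box of these letters was present in 7.91% of the 21011 promoter windows of protein-coding genes. Sirt6 held the NRF1 core at -142, which 2.52% of windows held, and an ETS motif at -35. Sirt7 held 2 ETS motifs, a motif of 11.7% of windows, and an NRF1 core at -23, and Foxo1 held 3 CCAAT boxes, a motif of 38.5% of windows. The forkhead motif GTAAACA (3.03% of windows) and the cyclic AMP response element TGACGTCA (2.26%) were in none of the 11 windows of the 9 genes. No match overlapped another in the windows shown. A match describes letters and is not evidence of binding. Of the 9 genes, all but Sirt5 had an observed over expected CpG content above the median of all windows (0.573).

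All 10 promoters were called at both ages, and they ranged from near the top of all genes to below the middle. A promoter was called in a list if a peak lay within 1 kb of an annotated start, or of either gene end for Foxo6. By this rule all 6 lists called the promoters of 5 of the 10 genes, against 35% of 21627 protein-coding genes. At least 5 lists called 9 of the 10, against 50.4% of all genes, and at least 4 lists called all 10, against 58.7%. No gene had its promoter called in every list of one age with none at the other, a pattern seen in 0.148% (aged only) and 0.231% (young only) of all genes. Strength is given below as a percentile, the rank of a peak's -log10 p within its own list, and as the authors' fold enrichment over the background of that list. Both depend on the list, and lists of different length and depth do not show a change in strength, so these values describe each list and were not tested between ages. Ties were common. A single -log10 p value covered 28.6% of the peaks of aged replicate 1, 31.5% of young replicate 1 and 21.4% of young replicate 2. Young replicate 2 had only 0.785 distinct values per 1000 peaks. Tied peaks share 1 percentile, so percentiles in these lists move in steps and are not finely graded. By mean percentile, with a list without a call counted as 0, Sirt2, Sirt1 and Foxo3 lay above 99.2%, 92% and 83.4% of genes, and Foxo6 and Sirt3 above 79.1% and 76.4%. Sirt6, Sirt4, Sirt5 and Foxo1 lay nearer the middle, above 65.4%, 64.3%, 60% and 56.5% of genes, and Sirt7 above 39.4%. Sirt6, Sirt5 and Foxo1 had no call in aged replicate 3, and Sirt4 none in young replicate 2, and each such 0 lowers the mean. In the lists that called them, percentiles were 92.8 to 99.7 for Sirt6 and 92.8 to 94.9 for Sirt4. They were 73.1 to 97.8 for Sirt5 and 42.7 to 97.9 for Foxo1.

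**Figure D1:**
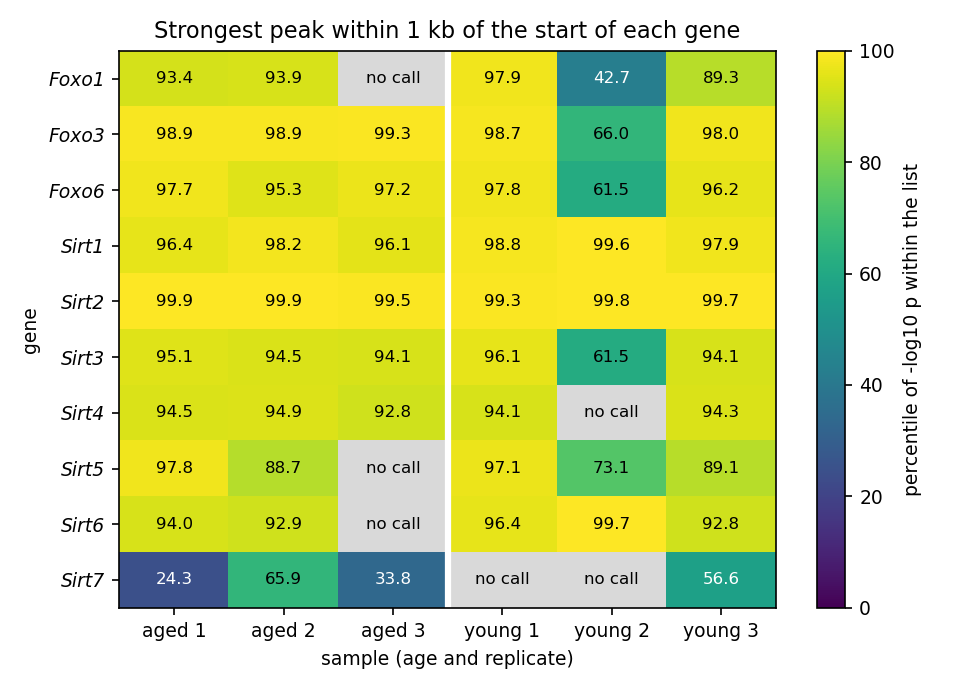
Percentile of the strongest peak within 1 kb of the start of each gene (of either gene end for Foxo6) in the 3 aged samples (left) and the 3 young samples (right). Grey cells had no call. Sirt2 lies at 99.3 or above in every sample, and Sirt7 lies at 65.9 or below wherever it was called.

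Foxo3, the FoxO factor best known for guarding blood stem cells, had 2 separate regions at its promoter, both called in all 6 lists. The upstream region (chromosome 10, 42277415 to 42278355, centred at -1190 bp from the start) had percentiles of 98.7, 98.9 and 99.3 in aged replicates 1 to 3. In young replicates 1 to 3 it had 98.7, 31.9 and 98. The low value belongs to young replicate 2, and the ages overlapped. The region over the start itself (42276358 to 42276970) had percentiles of 98.9, 96.3 and 63.6 in aged and 97.2, 66 and 94.2 in young replicates. The upstream region was thus the stronger of the pair in all lists but aged replicate 1 and young replicate 2.

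Foxo1, the FoxO factor that also governs B and T cell development, was called at its start (chromosome 3, 52267875 to 52268554) at percentiles of 93.4 and 93.9 in aged replicates 1 and 2. Young replicates 1 to 3 had 97.9, 42.7 and 89.3. Aged replicate 3 had no call there, so the gene was called in 2 aged and 3 young lists. This count depends on the setting. The peak of young replicate 2 had a -log10 q of 0.661, which misses a q-value of at most 0.05. With that limit, or with the strongest 100000 peaks of each list, 2 aged and 2 young lists called it. With a promoter window of 2 kb it was 3 of each age, and under a stricter overlap rule 1 aged and 3 young lists. Foxo6, a FoxO factor known mainly from the brain, had a strong region just outside the gene end with the higher coordinate (chromosome 4, 120287504 to 120288305). Its percentiles were 97.7, 95.3 and 97.2 in aged replicates, against 97.8 and 96.2 in young replicates 1 and 3. Young replicate 2 called only a weaker peak at the other gene end, at 61.5, and it is through that peak that Foxo6 counts among the 5 genes called in all lists.

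Of the nuclear and cytoplasmic sirtuins, Sirt2 and Sirt1 had the strongest promoters. Sirt2, a deacetylase of tubulin and other cytoplasmic proteins, was called at chromosome 7, 28766276 to 28767015, a region that also covers the annotated start of Nfkbib, an inhibitor of NF-kB. Its percentiles were 99.9, 99.9 and 99.5 in aged and 99.3, 99.8 and 99.7 in young replicates. The authors' fold enrichments were 15, 20.8 and 11.1 in the aged lists, against 11.3, 5.79 and 19.4 in the young. By mean percentile Sirt2 held place 163 among the 21627 genes, and this was the only promoter of the 10 above 99 in every list. Sirt1, a deacetylase of p53, FoxO and histones, had percentiles of 96.4, 98.2 and 96.1 in aged and 98.8, 99.6 and 97.9 in young replicates (chromosome 10, 63338427 to 63339720). The ages overlapped at Sirt1, since aged replicate 2 lay above young replicate 3. Sirt6, a histone deacetylase that acts in DNA repair and at telomeres, was called at chromosome 10, 81627211 to 81627957, a region that lies within 1 kb of a start of Ankrd24 too. It had percentiles of 94 and 92.9 in aged replicates 1 and 2, no call in aged replicate 3, and 96.4, 99.7 and 92.8 in young replicates.

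Of the mitochondrial sirtuins, Sirt3 ranked above Sirt4 and Sirt5, with mean promoter percentiles of 89.2, 78.4 and 74.3, where a list without a call counts as 0. These gaps rest mostly on the 2 lists that stand apart. Sirt3 had 61.5 in young replicate 2, where Sirt4 had no call, and 94.1 in aged replicate 3, where Sirt5 had none. Sirt3, the main deacetylase of mitochondria, has a promoter region (chromosome 7, 140881639 to 140882514) that also covers the start of Psmd13, which encodes a subunit of the proteasome. Percentiles were 95.1, 94.5 and 94.1 in aged and 96.1, 61.5 and 94.1 in young replicates. Apart from young replicate 2 the values lay within a narrow span. Sirt4, which restrains glutamate dehydrogenase, had percentiles of 94.5, 94.9 and 92.8 in aged replicates, against 94.1 in young replicate 1 and 94.3 in young replicate 3. It was not called in young replicate 2. Sirt5, which removes succinyl and malonyl groups, had 97.8 and 88.7 in aged replicates 1 and 2 and 97.1, 73.1 and 89.1 in young replicates. Aged replicate 3 called none of the 31 regions of the Sirt5 locus, and 76 of the 352 regions of all 10 loci. Were regions independent, a count of 0 of 31 would allow a share of up to 9.68%. Neighbouring regions are not replicates, so this limit is only a rough guide. The locus was also picked for its 0, in a list that stands apart, and 27 of its 31 regions were called in 1 list alone. The count therefore does not show that the locus lacks open regions in this sample.

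Apart from Sirt7, described next, the missing calls fell in the 2 lists that stand apart. For Foxo1, Sirt5 and Sirt6 the list without a promoter call was aged replicate 3, and for Sirt4 it was young replicate 2. Without these 2 lists, 9 of the 10 promoters were called in all 4 remaining lists, as were 54.3% of the 21627 genes. In Foxo1 and Sirt1 to Sirt6 the summits of the 38 promoter peaks lay between -157 and 132 bp from the nearest annotated start, with a median of -62 bp. This range leaves out Foxo3, whose strongest peak had its summit as far away as -1116 bp (young replicate 3). It also leaves out Sirt7, described next, and Foxo6, which had no annotated start. The narrow range depends on that choice of genes.

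Sirt7, a nuclear deacetylase that acts on ribosomal gene transcription and on the mitochondrial stress response, had the lowest mean of the 10. The strongest peaks near its start had percentiles of 24.3, 65.9 and 33.8 in aged replicates 1 to 3 and 56.6 in young replicate 3, with no call in young replicates 1 and 2. These 4 peaks lay in 3 separate regions, and the summits were 780 bp, 558 bp and -801 bp from the start in aged replicates 1 to 3 and 21 bp from it in young replicate 3. Fold enrichments ran from 2.52 to 2.99 in the aged lists and reached 2.85 in young replicate 3. With peaks of a q-value of at most 0.05 alone, 1 aged and 1 young list called it, so the count of 3 aged against 1 young list rests on weak peaks. The window of 300 bases printed above was touched by a peak in 1 young and no aged list.

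The neighbours of Sirt7 had regions called in every list. A region at an end of Pcyt2, which encodes an enzyme of phospholipid synthesis, lies 6817 bp beyond the Sirt7 start (chromosome 11, 120617575 to 120618197) and had percentiles of 97.6, 92.5 and 95.1 in aged and 97.1, 42.7 and 92.1 in young replicates. A region inside Mafg, which encodes a small Maf factor, lies 2808 bp upstream of Sirt7 (120627822 to 120628360), with percentiles of 81.2, 91.7 and 93.8 in aged and 95.3, 66 and 88.6 in young replicates. The shared start of Alyref and Anapc11 was the strongest region of the locus, at 98.1 or above in aged and 97.5 or above in young lists. The Sirt7 locus thereby held 5 regions called in all 6 lists, the most of the 10 genes when calls of any q-value count, and none of them was its promoter. Young replicate 2 called some of the 5 only at percentiles of 42.7, 22.3 and 0.0751, with -log10 q of 0.661, 0.661 and 0.415. These peaks miss a q-value of at most 0.05, so the count rests in part on weak peaks.

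**Figure D2:**
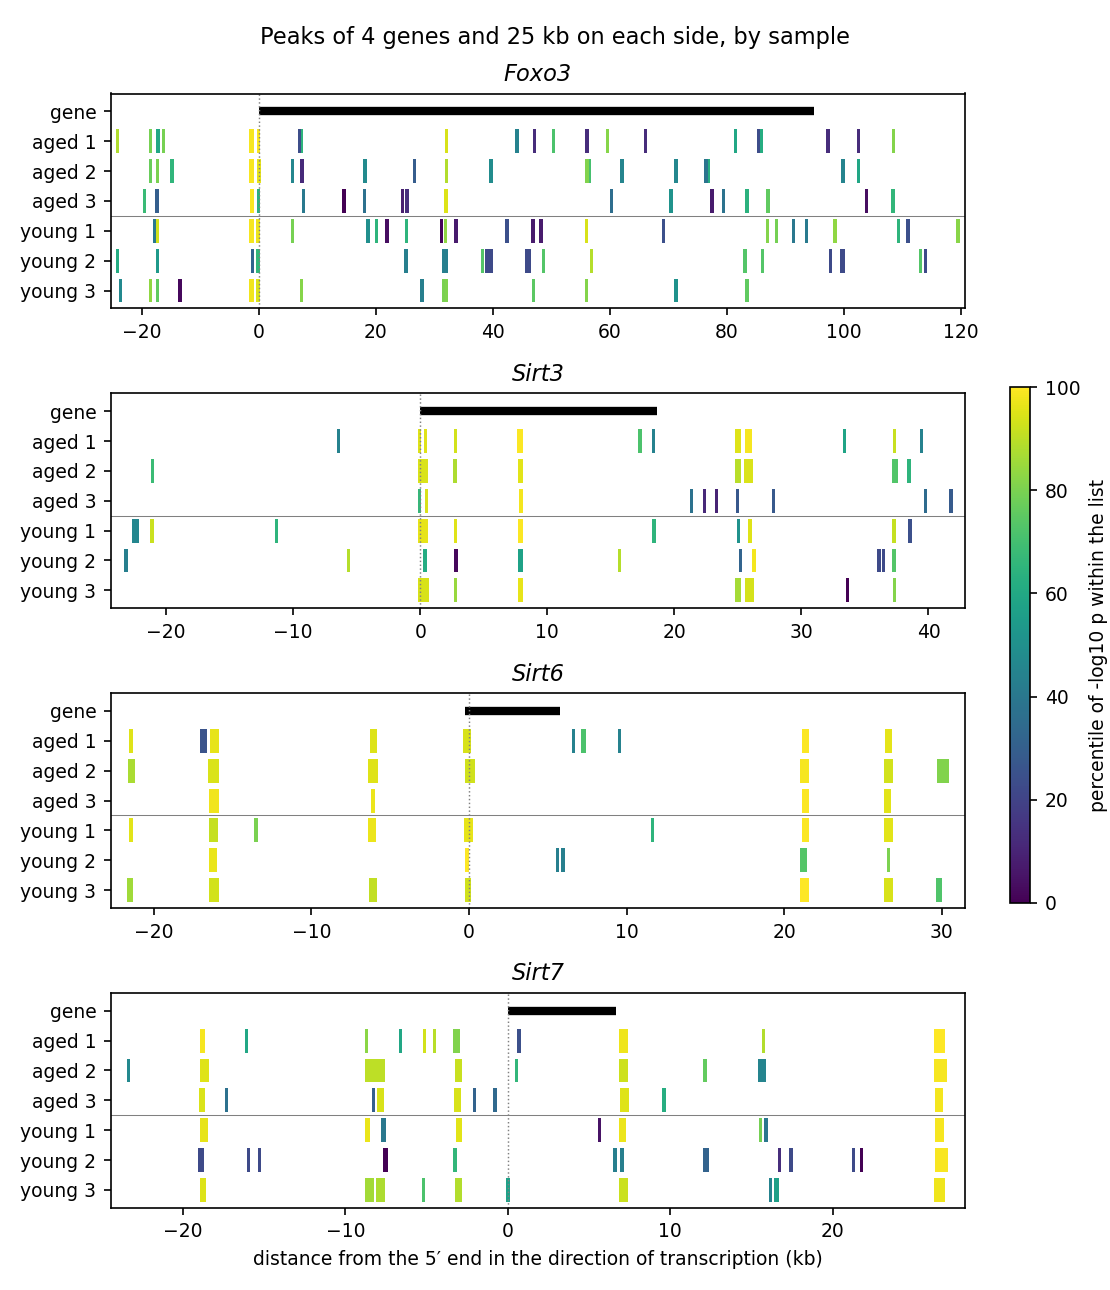
Peaks of Foxo3, Sirt3, Sirt6 and Sirt7 by distance in kb from the 5′ end (for Sirt3 and Sirt6 the more upstream of 2), in the direction of transcription; the 3 aged samples are above the 3 young ones, the black bar is the gene, and colour is the percentile within the list. Peaks narrower than 1/250 of a panel are widened to stay visible. Sirt7 has bright columns at its neighbours and none at its own start, while Sirt3 has a bright column 7 to 8 kb inside the gene.

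Outside promoters, the strongest regions were mostly those of neighbouring genes. Of the 352 regions, 16 lay at a promoter of the 10 genes, 35 at the promoter of another gene, 133 elsewhere inside the genes, 62 inside other genes and 106 between genes. All 6 lists called 5 of the 16 and 8 of the 35, against 2 of the 133, 3 of the 62 and 3 of the 106. The forkhead loci held 4 regions called in all lists, all at Foxo3, and the sirtuin loci 17. In all, 21 of 352 regions (5.97%) were called in all 6 lists, against 1.09% of all regions and 1.61% of regions within 25 kb of any protein-coding gene. A further 255 regions (72.4%) were called in 1 list alone, against 85.2% of all regions and 82.9% of regions near protein-coding genes.

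Sirt3 had a region inside the gene that outranked its promoter in 5 of 6 lists. It lies at chromosome 7, 140874189 to 140874703, centred 7423 bp from the nearer of its 2 annotated starts, and its percentiles were 99.6, 95.6 and 98.4 in aged and 99.2, 57.5 and 96.1 in young replicates. Whether it falls in an exon or an intron was not resolved with the annotation used. Foxo3 had an inner region that begins 31498 bp from its start (42244412 to 42245197), at 93.8, 88.5 and 94.8 in aged and 83.3, 42.7 and 80.7 in young replicates. All 3 aged values lay above all 3 young ones, but these ranks come from lists of unequal length. How many of all regions separate in this way was not counted. The young replicate 2 value comes from peaks with a -log10 q of 0.661, which miss a q-value of at most 0.05. Foxo3 also had a region 17116 bp upstream (42293811 to 42294193), called in all 6 lists at 59.7, 79.8 and 29.9 in aged and 92.7, 53.6 and 75.4 in young replicates. Foxo1 had inner regions centred 75468 bp from its start (called in 3 aged and 2 young lists) and 78840 bp from it (2 aged and 2 young lists). Near Sirt6, a region between genes, 20744 bp beyond the start (chromosome 10, 81605967 to 81606578), had 99.6, 98.5 and 99.4 in aged and 99.5, 73.1 and 99.7 in young replicates, above the Sirt6 promoter itself in all lists but young replicate 2.

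No difference between the ages was detected at the 10 loci. Not 1 of the 352 regions was called in the 3 aged lists alone, nor in the 3 young lists alone (0 each). Among all regions 0.0502% were called by aged lists alone and 0.0608% by young lists alone, and among regions near protein-coding genes 0.0558% and 0.0709%. Even with regions taken as independent, a count of 0 of 352 allows a share of up to 0.852%, above these shares, so 352 regions are too few to tell the loci from the rest. The count was also 0 for regions called in 3 aged lists and 1 young list, a pattern of 0.125% of all regions, and for 1 aged and 3 young lists (0.12%), shares too low to expect a region among 352. In 2 aged lists alone 7 of the 352 were called (1.99%, against 1.54% of all regions), and in 2 young lists alone 5 (1.42%, against 1.99%). These shares lie near those of all regions. Among the 7 was a region at the far end of Sirt1 (chromosome 10, 63318624 to 63318870, percentiles 71.6 and 74.5 in aged replicates 1 and 2), and among the 5 an inner region of Foxo1 (chromosome 3, 52300681 to 52301036, percentiles 89.5 and 73.1 in young replicates 1 and 3), both picked after their values were seen. Calls in 5 lists were more frequent at these loci than over all regions, as were calls in all 6. In 2 aged and 3 young lists 10 regions were called (2.84%, against 0.377%), and in 3 aged and 2 young lists 5 (1.42%, against 0.69%). This lean was not tested. Without aged replicate 3, the 2 remaining aged lists alone called 4 of 314 regions (1.27%, against 0.859% of all regions). Without young replicate 1, the 2 remaining young lists alone called 4 of 301 (1.33%, against 0.497%). Other removals gave shares below those of all regions. Aged lists alone called 0.341% without aged replicate 1 (against 0.375%) and 0.606% without aged replicate 2 (against 0.642%). Young lists alone called 0.344% without young replicate 2 (against 0.788%) and 0.296% without young replicate 3 (against 1.23%). Without both lists that stand apart, aged lists alone called 4 of 252 regions (1.59%, against 1.28%) and young lists alone 1 (0.397%, against 0.969%).

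Counted per list, the ages overlapped. The lists called 130, 96 and 76 of the 352 regions in aged replicates 1 to 3 and 115, 109 and 83 in young replicates 1 to 3. Aged samples averaged 101 ± 27.3 regions, and young ones 102 ± 17 (SD, n = 3 for both ages; exact 2-sided permutation p 1). The sign of this difference turned under several other settings given below. The loci held 0.0539%, 0.0751% and 0.0608% of the peaks of the aged lists and 0.0451%, 0.0432% and 0.0769% of the young lists ; the 95% Wilson interval was widest in young replicate 3, 0.0622% to 0.095%. The aged mean was 0.0633% ± 0.0108 and the young mean 0.055% ± 0.0189 (SD, n = 3 for both; exact permutation p 0.6). Of the 10 promoters, aged lists called 9 ± 1.73 and young lists 9 ± 1 (SD, n = 3 for both; exact permutation p 1). With 3 samples per age the smallest p this test can give is 0.1, so none of these comparisons could pass 0.05. Gene by gene, the widest gap in regions called was at Sirt5, with 4 ± 3.61 regions in aged lists, against 9.67 ± 4.51 in young lists (SD, n = 3 for both; exact permutation p 0.3), where aged replicate 3 had 0. This gap of -5.67 regions was -3.67 without aged replicate 3, -3.5 without young replicate 2 and -1.5 without both (exact permutation p 0.5, 0.5 and 1), and leaving out another single list gave -8 to -5.5 (exact permutation p 0.1 to 0.5).

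**Figure D3:**
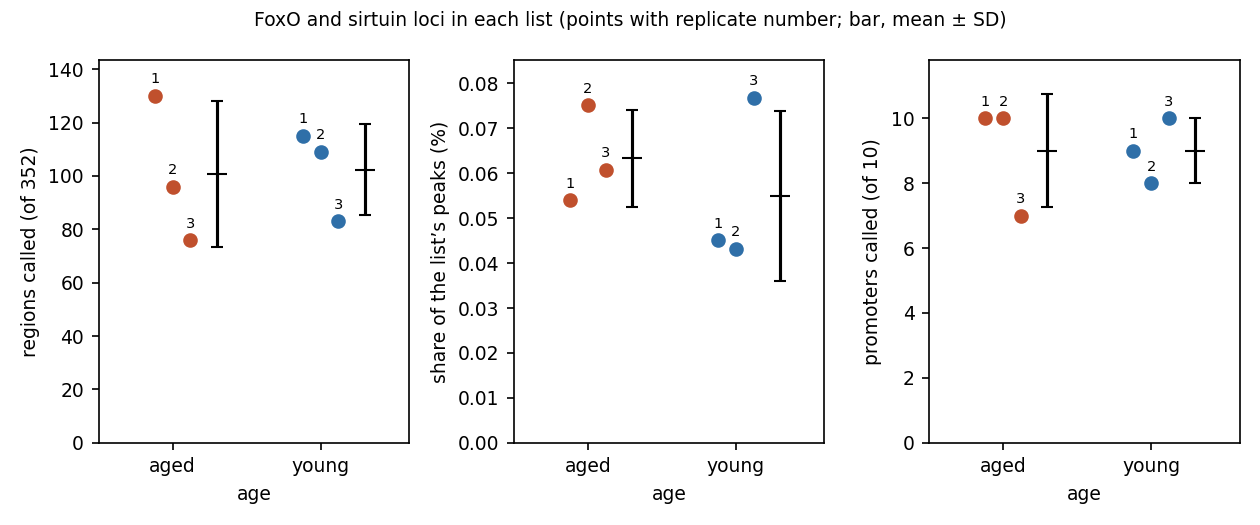
Number of the 352 regions called, share of the list's peaks in the 10 loci (%), and number of the 10 promoters called, for the 3 aged samples (left in each panel) and the 3 young samples (right). Points are samples with their replicate number, and bars are the mean ± SD. The 2 ages overlap in all 3 panels.

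To set strength on lists of one length, regions were ranked among the 9582 that all 6 lists called. Of the 21 such regions at the 10 loci, 1 had ranks without overlap between the ages, against 9.68% of all 9582. It was higher in aged lists, as 5% of all 9582 were, and none of the 21 was lower throughout, against 4.69%. It lies at the start of Hnrnpl, a splicing factor gene in the Sirt2 locus (chromosome 7, 28810222 to 28811084), with ranks of 83, 89.3 and 87.8 in aged and 76.5, 51.2 and 76.5 in young replicates. The promoters of Foxo3, Sirt1, Sirt2 and Sirt3 overlapped between the ages. Sirt1 had ranks of 39.8, 77.3 and 57.1 in aged and 71.7, 93 and 77.5 in young replicates. Sirt2 had 98.1, 98.5 and 93 in aged and 81.8, 95.2 and 96.8 in young replicates. The upstream Foxo3 region had 73.1, 86.4 and 91 in aged and 68.5, 11.7 and 78.2 in young replicates. The inner Foxo3 region, whose percentiles in the whole lists did not overlap, had ranks of 21.1, 12.4 and 47.6 in aged and 5.28, 14.7 and 5.09 in young replicates, which did overlap. The count of regions without overlap rests on which lists are used. It was 9 of 31 without aged replicate 3 (29%, against 18.2% of all shared regions), 4 of 25 without young replicate 2 (16%, against 20%) and 12 of 41 without both (29.3%, against 33.6%). Without another single list it was 2 to 5, with 17.5% to 22.7% of all shared regions. Of the 12 regions without both lists, 6 were higher and 6 lower in aged samples.

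**Figure D4:**
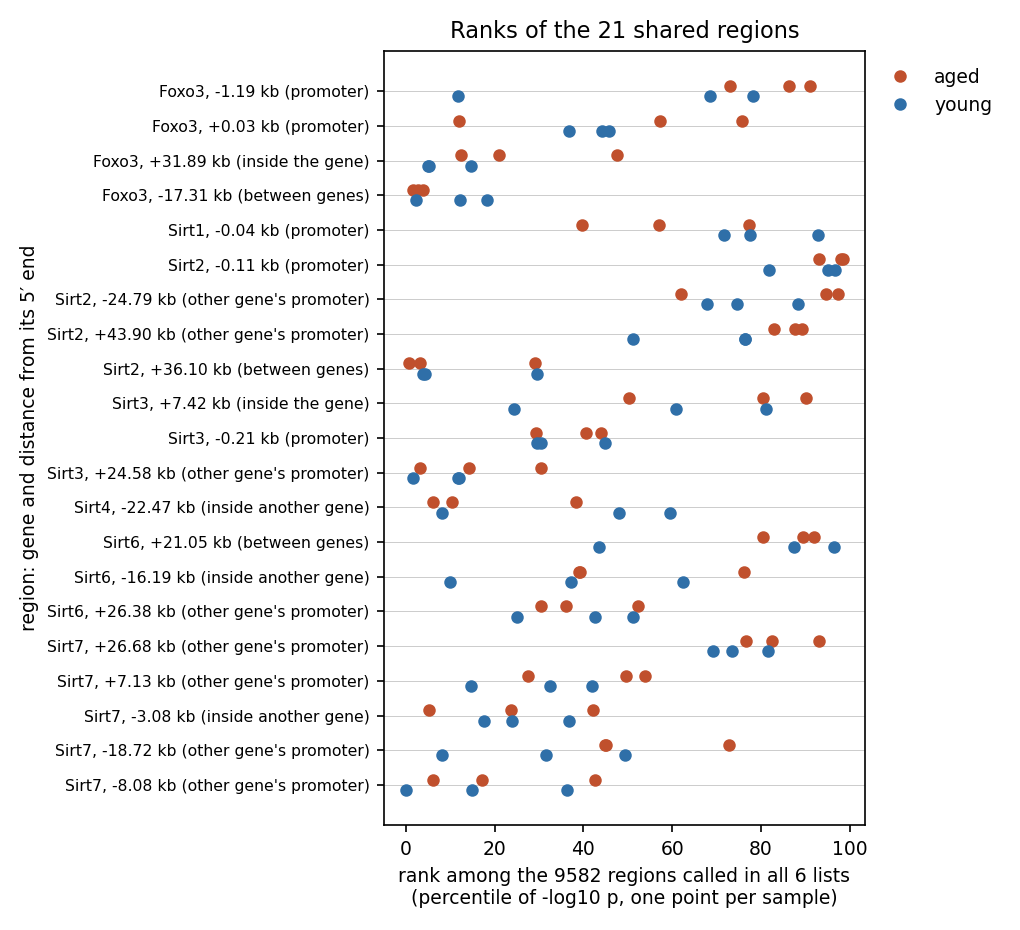
Rank of each of the 21 shared regions among the 9582 regions called in all 6 lists, in the 3 aged (upper points of a row) and the 3 young samples (lower points); rows give the gene, the distance in kb of the region from its 5′ end, and its class. In 1 row, the region 43.90 kb from the start of Sirt2, all aged points lie to the right of all young points.

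The other genes of the pathway were examined as a list of 84. Every list called 59 of them (70.2%) at the promoter, the rule that 35% of all genes met, and none was called in all 3 lists of one age and in none of the other (0 of 84, which allows up to 3.57%). By role, this held for 15 of 20 kinases and receptors upstream of FoxO, 7 of 10 factors of FoxO turnover, export and acetylation, 18 of 22 FoxO targets, 8 of 15 genes of NAD metabolism and 11 of 17 partners and substrates of sirtuins. Upstream of FoxO, the PI3-kinase subunits Pik3r1 and Pik3ca were called in all lists at mean percentiles of 99.3 and 97.8, and Pdpk1, a kinase that activates AKT, at 99.1. Akt1, one of the kinases that phosphorylate FoxO, was called in 2 aged and 3 young lists. Skp2, a ubiquitin ligase subunit that targets Foxo1, and Xpo1, the nuclear export receptor, had means of 99.5 and 99.2. Ywhaz, an adaptor that binds phosphorylated FoxO, was called in 1 aged list, and Kat2b, an acetyltransferase, in 2 of each age.

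Among FoxO targets, the DNA damage kinase gene Atm (mean percentile 99.4), the stress sensor Sesn3 (99.3) and the mitochondrial superoxide dismutase Sod2 (98.6) led. The autophagy gene Gabarapl1 was called in 1 aged list and all 3 young lists, and the ubiquitin ligase gene Fbxo32 in 2 of each age. In NAD metabolism, the NAD kinase Nadk (99.6), the NAD-consuming enzyme Parp2 (99.2) and Nampt (98.7), which makes the NAD precursor that sirtuin activity depends on, were called in all lists. Nnmt was called in no list, Bst1 in 1 young list, and Nmnat2 in 1 aged and 1 young list. Of the sirtuin partners, Acss2, Hif1a and Glud1 were called in all lists (98.6, 98.3 and 96). Cps1, a urea cycle enzyme of the liver that Sirt5 acts on, was called in none, Ppargc1a in 1 aged list, and Nlrp3, an inflammasome gene that Sirt2 restrains in mouse cells, in 1 aged and 2 young lists. The lists called 92.9%, 91.7% and 82.1% of the 84 promoters in aged and 92.9%, 75% and 91.7% in young replicates, with an aged mean of 88.9% ± 5.87 and a young mean of 86.5% ± 9.98 (SD, n = 3 for both; exact permutation p 0.9). The lowest aged and the lowest young value again belong to aged replicate 3 and young replicate 2.

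**Figure D5:**
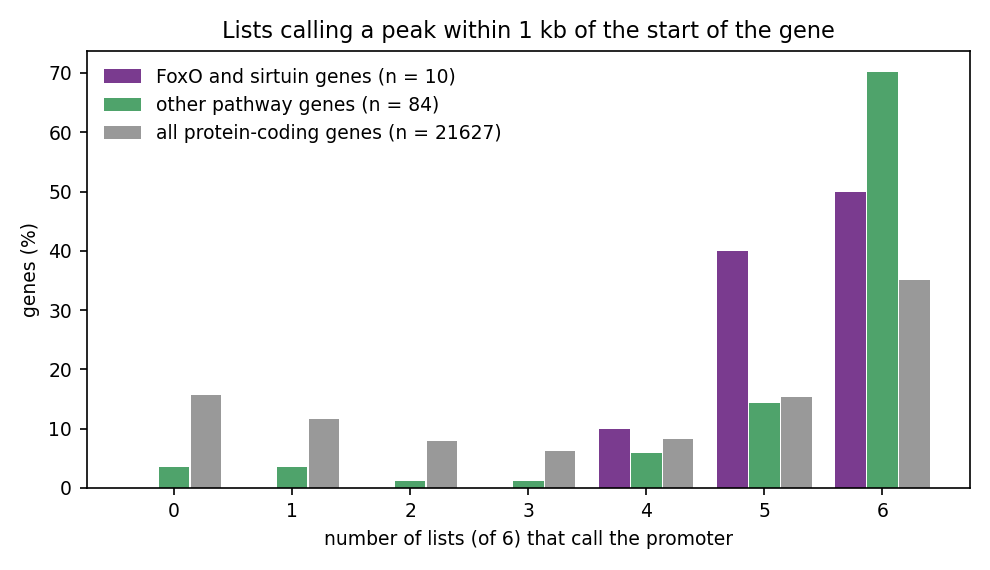
Share of genes (%) by the number of lists, 0 to 6, that call a promoter, for the 10 FoxO and sirtuin genes, the 84 other pathway genes and all 21627 protein-coding genes. The 10 genes lie at 4 lists or more, whereas 15.6% of all genes were called in no list.

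The genes whose promoters were most like those of Foxo3 and Sirt1 over the 6 samples were found by the Euclidean distance between their 6 promoter percentiles. For Foxo3 these were Gtf2i (distance 1.01), Lnpep (1.13) and Zbtb7b (1.16). Each of these genes had the same tied percentile as Foxo3 in young replicate 2 (66), so the likeness rests in part on that tie. For Sirt1 they were Elp4 and Immp1l, which had equal percentiles (distance 0.382), and Dnmt1 (0.89).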

How the data were processed

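ATAC-seq peak lists of 3 aged and 3 young samples were analysed. Ages and replicates follow the titles. The build was mm10, and the tools were, per the submitters' processing notes, Bowtie2, SAMtools, Picard and MACS2; versions, roles, parameters and any read shift are not given in the sources used here. In the deposited lists each peak has a score (10 times the -log10 p, capped at 1000), a fold enrichment (a ratio over the background of that sample, by the authors' peak caller), a -log10 p and a -log10 q; the deposited p-values are at most 0.01. Peaks were called per sample, and 0 of 15 pairs of lists were identical.

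Rows repeating an interval were merged; chromosomes 1 to 19 and X were used. Overlaps of at least 1 bp made merged regions. Genes, starts and sequences came from RefSeq tables on GRCm38.p6. For the 10 members, the 84 pathway genes and the markers, lists were chosen with earlier results of these data known. Named were all members, per member its promoter and up to 3 other regions by mean percentile, regions called at 1 age alone, and in each pathway group up to 3 genes with the most and 3 with the fewest lists; distal regions named beyond these, and the motifs, were picked after values or sequences were seen. Some genes that this rule or the marker lists hold are not reported here. The exact 2-sided permutation test over samples served for single values. Alternatives changed the q-value limit, the number of peaks, the overlap, the gene and promoter windows and the samples. Merging and calling were tested on simulated lists of well-separated regions, which checks the code and not how it handles crowded or weak peaks. Python 3.11.15 with pandas 2.3.3, NumPy 2.4.6 and SciPy 1.17.1 was used.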

Additional observations from a re-analysis of the deposited data

How the results depend on the processing

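Same-numbered samples share a number after "exp" in their titles (2, 5 and 3 for replicates 1, 2 and 3), whose meaning the labels do not give, so whether it marks a shared experiment is unknown. The values gave no sign of pairing: the deviations of same-numbered samples from their group means, over the 9582 shared regions, correlated at 0.0246, -0.17 and -0.0501, and no aged sample correlated best with the young sample of its number. With 3 samples per age, 1 list of each age standing apart, this check is weak and cannot exclude a shared experiment. With the replicate block (exact sign-flip test, smallest possible p 0.25) the differences were, by construction, as reported, -1.67 regions, 0.00825 percentage points of peaks, 0 promoters and 2.38 percentage points of pathway promoters (p 1, 0.75, 1 and 1). Within numbers, aged minus young was 15, -13 and -7 regions, and 1, 2 and -3 promoters.

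The difference in regions called per list, aged minus young, turned from -1.67 to 8.33 at a q-value of at most 0.05, 14.3 with the strongest 100000 peaks of each list, 1 when peaks had to cover 50% of a region, and 14 without aged replicate 3 and young replicate 2 together, a setting added after the data were seen; leaving out single lists gave -15.8 to 10.7. The smallest p among these settings was 0.4. The share of peaks stayed higher in aged samples, at 0.00231 to 0.0192 percentage points without single lists. Without single lists, the pathway difference ran from -3.37 (without young replicate 2) to 6.15 percentage points and the promoter difference from -0.5 to 1. The pathway difference was 6.35 at that q-value and with the strongest peaks, and the promoter difference was 1.67 at 50% cover.

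Regions called in all lists numbered 12 at that q-value, 11 with the strongest peaks, 4 at 50% cover, 9 within 5 kb, 37 within 100 kb, 20 to 31 without single lists and 41 without both lists. Promoters called in all lists numbered 2 at 50% cover, 5 to 8 without single lists (8 without aged replicate 3) and 9 without both. Regions called at one age alone numbered 0 to 4 in aged and 0 to 4 in young samples without single lists, and 4 and 1 without both. Regions with ranks apart numbered 0 at 50% cover and within 5 kb, 2 to 9 without single lists and 12 without both. A rule over fewer lists is easier to meet, for all regions as well; the cause of the others was not tested. At 50% cover the Sirt5 promoter was called in 2 aged and 1 young lists, a difference of 1 in place of -1. Read depth is unknown, and weak peaks make up most regions.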
